A study of Mus musculus with 6 samples.

Results

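The 9 genes described here encode proteins of serine synthesis, of the release of one-carbon units from serine and glycine, and a serine racemase. Phgdh, Psat1 and Psph belong to the serine synthesis pathway, and Shmt1 and Shmt2 are the serine hydroxymethyltransferases. Srr is the serine racemase, and Gldc, Amt and Gcsh belong to the glycine cleavage system. All 9 genes were chosen by name, members near 0 included, from the 36065 genes of the deposited gene table, and all were found there. RNA was sequenced from wild-type (WT) mouse embryos at the 1 cell stage, held in vitro culture in 1 of 3 conditions. The groups were DMSO, the solvent, CBR-5884 (CBR below), and CBR-5884 with S-adenosylmethionine (CBR+SAM below), each with 2 biological replicates. CBR-5884 is a small molecule known as an inhibitor of PHGDH, and S-adenosylmethionine (SAM) is the methyl donor of cells. All 3 groups shared the genotype and the culture, no group received SAM alone, and the strain, the doses and the hours of culture were not given in the sources used here.

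Serine is made from a glycolytic intermediate in 3 steps, which PHGDH, PSAT1 and PSPH catalyse in that order. SHMT1 in the cytosol and SHMT2 in mitochondria move a one-carbon unit from serine to folate and leave glycine, and the glycine cleavage system of mitochondria takes a further unit from glycine. Through folate and methionine these units supply SAM, and oocytes and early embryos are known to take up glycine.

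Each value is an abundance that accounts for transcript length, on a scale close to TPM, so that genes can be compared with each other. Library sums ran from 956209 to 1059420, and 11529 to 11873 genes reached 1 in a library. All 12 oocyte and zygote markers listed were tested, among them Dppa3 at 13565 to 17885. Of 10 cumulus cell markers only Cyp19a1 was tested, and the summed list ran from 8.83 to 12.9 in DMSO, 12.3 to 13.9 in CBR and 12.6 to 14.5 in CBR+SAM. Of 6 sperm markers only Prm2 was tested, Tnp1 and Smcp were at 0 in all libraries, and the sums ran from 13.07 to 13.1, 14.9 to 15.7 and 11.1 to 15.1 in the same order. The summed 5 blood markers did not pass 2.31 and the summed 5 oviduct markers did not pass 4.70. Whether such cells contributed to the values below was not tested. The values are relative amounts, not shares of each library's own total, and the step that scaled them was not given in the sources used here. The number of embryos per library was not given there either. The p-values reflect how far these libraries spread within their groups.

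The start regions of 4 members are printed first, because they carry the contrasts that the values show: Phgdh and Psat1 are consecutive steps with unequal transcript levels, and Shmt1 and Shmt2 are paired isozymes with unequal spread. Each line gives the 120 bases before the annotated start, 5′ to 3′ on the gene's own strand, from RefSeq on GRCm38.p6, with matches to the motifs searched in capitals. The gene spans given further below are from GENCODE M21, and their ends differ from these RefSeq starts for some genes. The Psat1 and Shmt1 stretches lie inside those spans, and the Phgdh stretch lies partly inside. Which start the embryos use was not tested.
Phgdh, chr3:98339970-98340089, minus strand: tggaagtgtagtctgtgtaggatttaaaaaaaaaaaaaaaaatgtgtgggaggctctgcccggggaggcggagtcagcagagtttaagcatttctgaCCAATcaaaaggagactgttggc
Psat1, chr19:15925060-15925179, minus strand: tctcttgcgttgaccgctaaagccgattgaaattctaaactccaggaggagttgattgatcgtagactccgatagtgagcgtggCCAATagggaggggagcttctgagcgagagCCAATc
Shmt1, chr11:60811266-60811385, minus strand: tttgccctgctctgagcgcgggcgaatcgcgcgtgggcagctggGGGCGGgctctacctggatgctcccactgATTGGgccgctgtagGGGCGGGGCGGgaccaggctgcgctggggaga
Shmt2, chr10:127522445-127522564, minus strand: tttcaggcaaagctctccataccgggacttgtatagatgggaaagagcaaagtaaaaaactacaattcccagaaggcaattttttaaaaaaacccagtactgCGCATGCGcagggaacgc

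Motifs were searched on both strands in the 250 bases before each start, and all 9 members had at least 1 such window. CCAAT, the letters of the CCAAT box, occurred in 7 members (Phgdh, Psat1, Psph, Shmt1, Gldc, Amt and Gcsh) and in 33.8% of 32851 windows of the same length. GGGCGG, the GC box, occurred in 7 members (Psat1, in another of its windows, Psph, Shmt1, Srr, Gldc, Amt and Gcsh) and in 32.7% of windows. In the Shmt1 line the last run of capitals holds GC boxes 32 and 27 bases before the start that overlap by 1 base. GCATGCG, the core of the palindrome bound by the factor NRF1, occurred in Shmt2, on both strands at 18 and 17 bases before its start, and in 3.02% of windows. TATAAA occurred in the Phgdh window, upstream of the bases printed, and in 12.4% of windows. TGATGNAA, a form of the response element of ATF4, and the E-box CACGTG occurred in no member window and in 3.45% and 6.02% of all windows.

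Shmt2 had the highest level of the 9 genes, with a mean of 13.9 over the 6 libraries, and 56.0% of the 11019 protein-coding genes tested had a lower mean. Shmt1 followed at 6.80, Psph at 5.37 and Phgdh at 4.95. The ranges of these last 3 overlapped, so their order was not fixed. Gcsh at 2.90, Gldc at 2.37 and Srr at 2.09 lay below Shmt2, Psph and Phgdh without overlap, whereas the range of Shmt1 reached those of Gcsh and Gldc. Gcsh lay above Gldc in 6 of 6 libraries although their ranges overlapped, and Gldc and Srr overlapped. Amt at 0.193 and Psat1 at 0.144 were lowest, and Srr exceeded Amt 7.94 to 24.5 times within a library. Amt and Psat1 did not reach 1 in any library and were therefore not among the 12249 genes tested, which had to reach 1 in 2 or more libraries. The other 7 members were at 1 or more in all 6 libraries.

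**Figure D1:**
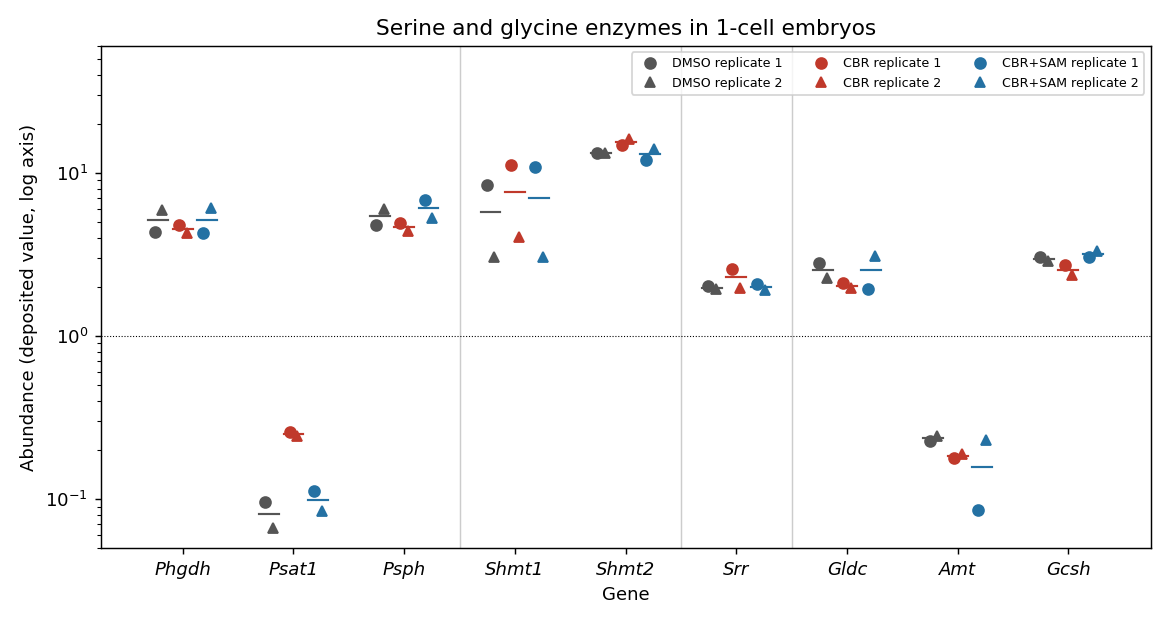
Abundance of the 9 genes in each library on a log axis, circles for replicate 1 and triangles for replicate 2, with a short line at each group mean and a dotted line at 1. Psat1 and Amt lie below 1 in every library, and the replicates of Shmt1 lie apart in all 3 groups.

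Phgdh (ENSMUSG00000053398, chr3:98313170-98339990, minus strand) encodes the dehydrogenase that commits a glycolytic intermediate to serine. Its values were 4.34 and 5.95 in DMSO, 4.81 and 4.28 in CBR, and 4.29 and 6.05 in CBR+SAM, for replicates 1 and 2. These correspond to about 183 to 264 reads, estimated from the steps between low values. The highest library was a CBR+SAM library and the lowest a CBR library, and the 3 groups overlapped. The change of Phgdh, on the log2(value + 1) scale used for every change below, was -0.14 for CBR against DMSO (SE 0.23, 95% interval -0.68 to 0.41). For CBR+SAM against CBR it was 0.14 (-0.40 to 0.68), and for CBR+SAM against DMSO 0.00 (-0.54 to 0.55). The table also held 17 processed pseudogenes of 90.4% to 98.7% identity to Phgdh, so reads could be divided between these records. Gm5266, which aligns over 478 bases, was listed at 0.712 to 1.74, and the other 16 together summed to 0.0315 to 0.436 per library.

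Psat1 (ENSMUSG00000024640, chr19:15904678-15947337, minus strand) encodes the aminotransferase of the next step. Its values were 0.0962 and 0.0665 in DMSO, 0.258 and 0.245 in CBR, and 0.113 and 0.0842 in CBR+SAM, or about 6 and 3, 14 and 15, and 7 and 5 reads. Both CBR libraries lay above the 4 others. The same held for 4.46% of the 26034 genes above 0 in any library. When genes were tested without a filter, the Psat1 change was 0.21 for CBR against DMSO (SE 0.05, unadjusted p = 0.00707, limma adjusted p = 1). It was -0.19 for CBR+SAM against CBR (unadjusted p = 0.0112, limma adjusted p = 0.935), and neither passed the threshold of 0.05. With a pseudocount of 0.1 in place of 1, chosen after seeing the data, these changes were 0.96 and -0.83 (limma adjusted p = 1 and 0.913). The Psat1 levels rest on few reads and give no reliable fold.

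Psph (ENSMUSG00000029446, chr5:129765558-129787449, minus strand) encodes the phosphatase that releases serine. Its values were 4.78 and 6.03 in DMSO, 4.90 and 4.41 in CBR, and 6.83 and 5.28 in CBR+SAM, about 173 to 266 reads. Both CBR+SAM libraries exceeded both CBR libraries, with a change of 0.31 (SE 0.21, -0.18 to 0.80), and DMSO overlapped both other groups. Against DMSO the change was -0.17 in CBR (-0.66 to 0.31) and 0.14 in CBR+SAM (-0.35 to 0.63). Psph shares 452 identical bases with a transcript of Cct6a on the opposite strand, which was listed at 2259 to 3344. The protocols describe no strand marking, so reads of that stretch cannot be assigned and the Psph values are uncertain.

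Phgdh and Psph had like levels, and their ratio, Psph over Phgdh, ran from 0.873 to 1.59 within a library. Phgdh over Psat1 ran from 17.5 to 89.6 and was lowest in the CBR libraries, at 18.6 and 17.5. The deposited values of the 3 synthesis genes summed to 9.22 and 12.05 in DMSO, 9.97 and 8.94 in CBR, and 11.2 and 11.4 in CBR+SAM.

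Shmt1 (ENSMUSG00000020534, chr11:60788104-60811718, minus strand), the cytosolic hydroxymethyltransferase, had the widest spread of the tested members. Its values were 8.48 and 3.07 in DMSO, 11.2 and 4.05 in CBR, and 10.9 and 3.07 in CBR+SAM, about 572 and 172, 659 and 276, and 712 and 204 reads. The 3 libraries of replicate 1 ran from 8.48 to 11.2 and the 3 of replicate 2 from 3.07 to 4.05, with no overlap, and this division was present in each group. Replicate 1 exceeded replicate 2 by 2.77 times in DMSO, 2.76 times in CBR and 3.57 times in CBR+SAM. The labels give the replicate number without saying what it stands for.

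A model with group and replicate number gave Shmt1 a change of -1.35 for replicate 2 against replicate 1 (SE 0.15, 95% interval -1.71 to -0.99, limma adjusted p = 0.0277). Shmt1 was the only member of the 7 tested that passed, where 0.376% of all genes tested passed (46 of 12249). At an unadjusted p under 0.05 it was also the only one of the 7, against 9.67% of genes. It ranked 35 by p, and 0.612% of genes had a larger absolute change. The change kept its sign and passed the threshold when each library was left out in turn (-1.41 to -1.25), but with no filter on low values the limma adjusted p was 0.342. Shmt1 and Srr were the 2 of 7 tested members whose replicates 1 and 2 did not overlap over all groups, where 17.4% of genes tested did not. Srr gave -0.13 (-0.52 to 0.26), and the other 5 members lay between -0.05 and 0.22. Of the 7 changes 3 were above 0, beside 51.1% of all genes. The Shmt1 transcript shares 184 bases with Smcr8 on the opposite strand, listed at 0.378 to 0.824 and thus below Shmt1 in every library.

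Between conditions the Shmt1 ratios were nearer to 1 than between replicates. CBR over DMSO was 1.32 within replicate 1 and 1.32 within replicate 2, and CBR+SAM over CBR was 0.979 and 0.757. The changes from the fit by group, which does not account for replicate number, were 0.34 for CBR against DMSO (-1.18 to 1.85), -0.17 for CBR+SAM against CBR (-1.69 to 1.34) and 0.17 for CBR+SAM against DMSO (-1.35 to 1.68). These were the widest intervals of the 7 tested members.

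Among 10689 tested genes, predicted genes left out, the 5 with the pattern closest to Shmt1 over the 6 libraries were Tpm3-rs7, Eif3s6-ps2, Ankib1, Cd47 and Acadm. Likeness is the root mean square difference of the centred log2(value + 1), which ran from 0.136 for Tpm3-rs7 to 0.238 for Acadm. Ankib1 read 28.7 and 9.66 in DMSO, 23.7 and 10.2 in CBR, and 33.3 and 9.90 in CBR+SAM. Acadm, the medium-chain acyl-CoA dehydrogenase, read 79.7 and 41.1, 77.9 and 44.1, and 100.3 and 42.8 in the same order. All 5 genes were higher in replicate 1 than in replicate 2 in every group. They were chosen for this pattern, so it is a description.

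**Figure D2:**
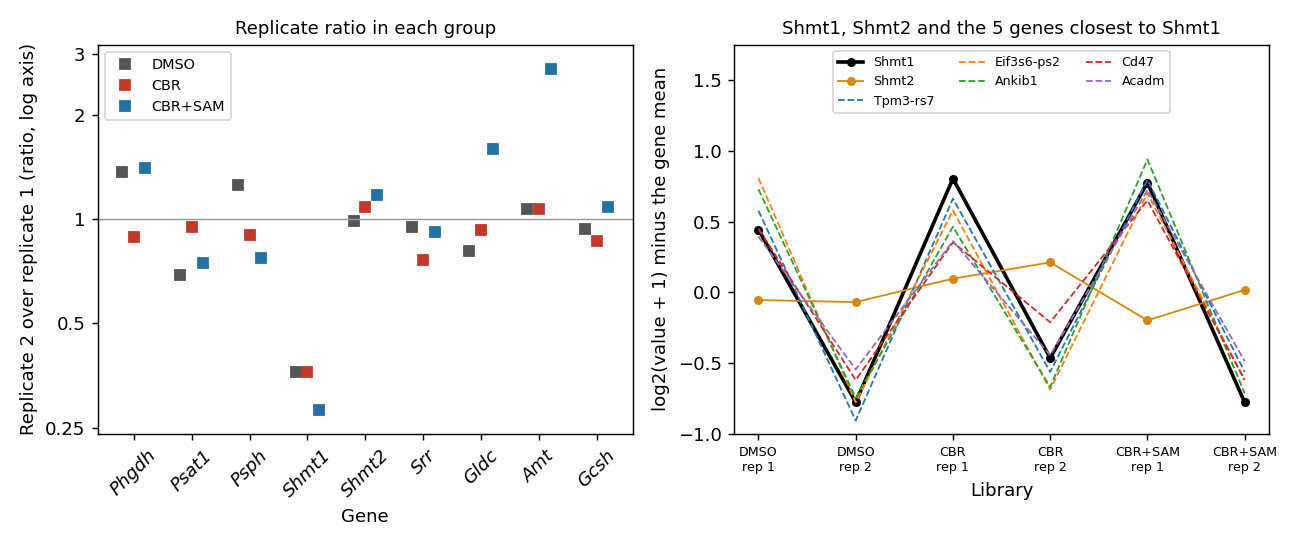
Left, the ratio of replicate 2 to replicate 1 for each of the 9 genes and 3 groups, on a log axis with a line at 1. Right, log2(value + 1) minus the gene's mean in the 6 libraries for Shmt1, Shmt2 and the 5 genes closest to Shmt1. Shmt1 is the gene with all 3 ratios far below 1, and the Shmt2 line does not follow it.

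Shmt2 (ENSMUSG00000025403, chr10:127517123-127522444, minus strand), the mitochondrial enzyme, read 13.3 and 13.1 in DMSO, 14.9 and 16.2 in CBR, and 11.9 and 14.01 in CBR+SAM, about 586 to 879 reads. Both CBR libraries lay above the 4 others. The change was 0.22 for CBR against DMSO (SE 0.17, -0.18 to 0.61), -0.24 for CBR+SAM against CBR (-0.64 to 0.15) and -0.03 for CBR+SAM against DMSO (-0.42 to 0.36). None passed the threshold. A pseudogene, Gm15544, is 90.1% identical to Shmt2 over 233 bases and was listed at 1.45 to 3.11, lowest in the CBR libraries. The Shmt2 gene also overlaps Ndufa4l2, on the opposite strand, by 32 bases of the genome. Ndufa4l2 was listed at 1.70 and 0.932 in CBR and at 0 to 0.196 in the 4 others. Whether reads of these records affect the Shmt2 values was not tested. Between replicate numbers Shmt2 changed by 0.11 (-0.21 to 0.42).

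Shmt2 exceeded Shmt1 in 6 of 6 libraries. The ratio was 1.57, 1.33 and 1.09 in replicate 1 of DMSO, CBR and CBR+SAM, and 4.28, 3.99 and 4.57 in replicate 2. Shmt2 itself stayed between 11.9 and 16.2, and its replicates 1 and 2 overlapped over the groups. The sum of both enzymes was 21.8 and 16.2 in DMSO, 26.04 and 20.2 in CBR, and 22.9 and 17.1 in CBR+SAM.

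Srr (ENSMUSG00000001323, chr11:74906359-74925948, minus strand) encodes the racemase that turns L-serine into D-serine. Its values were 2.03 and 1.93 in DMSO, 2.59 and 1.98 in CBR, and 2.09 and 1.92 in CBR+SAM. CBR replicate 1 was the highest, and the groups overlapped. The change was 0.13 for CBR against DMSO (-0.35 to 0.62), -0.12 for CBR+SAM against CBR (-0.61 to 0.36) and 0.01 for CBR+SAM against DMSO (-0.48 to 0.49). The Srr gene overlaps Tsr1, on the opposite strand, by 2984 bases of the genome, introns included, and Smg6 by 126. The main Srr transcript, of 3699 bases, shares 621 identical bases with Tsr1, which was listed at 2.28 to 3.42, so the values of Srr are uncertain.

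Gldc (ENSMUSG00000024827, chr19:30098447-30175429, minus strand) encodes the decarboxylase that opens glycine cleavage. It read 2.81 and 2.27 in DMSO, 2.11 and 1.96 in CBR, and 1.95 and 3.11 in CBR+SAM. Both CBR libraries were below both DMSO libraries, and the CBR+SAM libraries held both the lowest and the highest value. The change was -0.22 for CBR against DMSO (SE 0.24, -0.77 to 0.34), 0.20 for CBR+SAM against CBR (-0.36 to 0.75) and -0.02 for CBR+SAM against DMSO (-0.57 to 0.54).

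Gcsh (ENSMUSG00000034424, chr8:116981810-116993537, minus strand) encodes the lipoyl carrier protein that passes the intermediate between the other subunits. It read 3.07 and 2.87 in DMSO, 2.73 and 2.36 in CBR, and 3.05 and 3.31 in CBR+SAM, and both CBR libraries lay below the 4 others. The change was -0.16 for CBR against DMSO (SE 0.19, -0.61 to 0.29), 0.24 for CBR+SAM against CBR (-0.21 to 0.69) and 0.07 for CBR+SAM against DMSO (-0.38 to 0.52). Over 353 bases Gcsh is 93.2% identical to a transcript of Cysltr2, listed at 15.9 to 20.4, and reads of that stretch could fall to either gene.

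Amt (ENSMUSG00000032607, chr9:108296853-108302302, plus strand) encodes the aminomethyltransferase that hands the one-carbon unit to folate. It read 0.228 and 0.244 in DMSO, 0.178 and 0.190 in CBR, and 0.0853 and 0.231 in CBR+SAM, about 4 to 11 reads. Both CBR libraries were below both DMSO libraries, at about 8 and 9 against 11 and 10 reads. Without a filter the Amt change for CBR against DMSO was -0.06 (SE 0.08, limma adjusted p = 1). Within a library Gldc exceeded Amt 9.32 to 22.9 times and Gcsh exceeded it 11.8 to 35.8 times. The main Amt transcript holds a stretch that resembles parts of many other transcripts at 90% identity or more, which adds to the uncertainty of so low a value.

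Over the 7 tested members, CBR against DMSO gave 0 calls with limma, where 0% of all genes tested were called, and all 7 had a limma adjusted p of 1.00. At an unadjusted p under 0.05 there were 0 members, against 260 of 12249 genes (2.12%). The values of the groups did not overlap for 3 of 7, Shmt2 higher and Gldc and Gcsh lower, where 33.0% of genes tested did not overlap. The median change of the 7 was -0.14, beside -0.01 over all genes tested, and 3 of 7 lay above 0, beside 48.3%.

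CBR+SAM against CBR gave 0 calls among the 7 members with limma, where 0.00816% of genes tested (1 gene) were called, and the adjusted p of the members ran from 0.988 to 0.995. At an unadjusted p under 0.05 there were 0 members, against 378 genes (3.09%). Groups did not overlap for 3 of 7, Psph and Gcsh higher and Shmt2 lower, where 27.5% of genes did not. The median change was 0.14, beside 0.01 over all genes, and 4 of 7 lay above 0, beside 52.4%. For CBR+SAM against DMSO there were again 0 calls among 7, where 0.00816% of genes were called. All 7 had a limma adjusted p of 1.00, 0 had an unadjusted p under 0.05, against 262 genes (2.14%), and groups did not overlap for 0 of 7, where 24.5% of genes did not. The median change was 0.01, beside 0.00 over all genes, and 5 of 7 lay above 0, beside 49.0%. The 3 comparisons share libraries, so a member high in CBR differs in sign between the first and the second by construction.

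**Figure D3:**
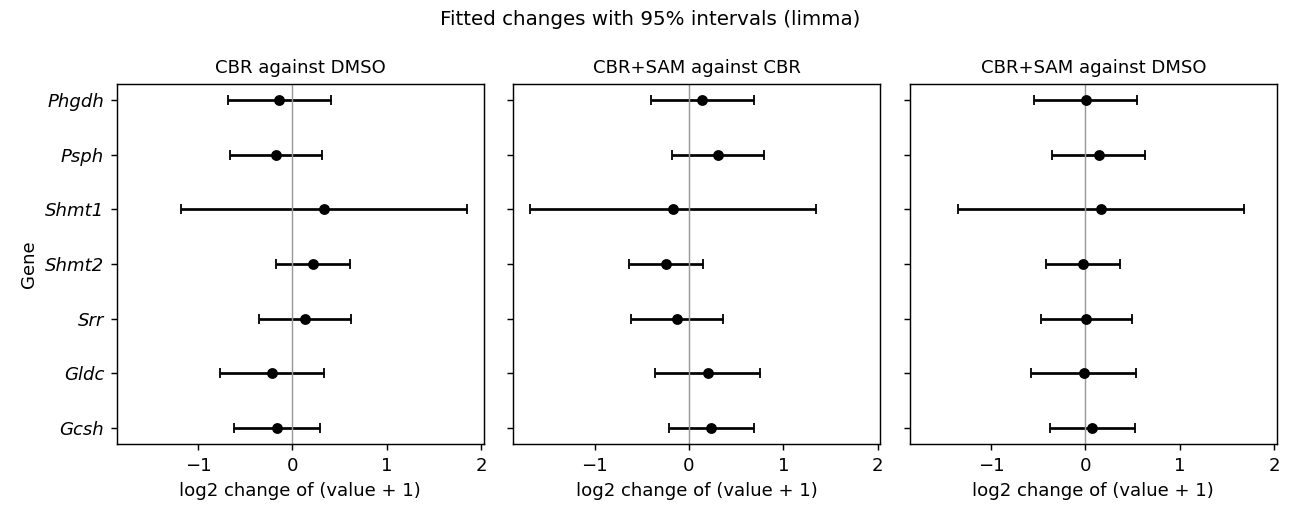
Fitted log2 change of (value + 1) with its 95% interval for the 7 tested members in the 3 comparisons, from limma. All 21 intervals include 0, and those of Shmt1 are the widest.

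Both CBR libraries lay apart from the 4 others for 3 of the 9 members: Psat1 and Shmt2 above, Gcsh below. Among the 7 tested these were 2, where 12.9% of genes tested lay apart in either direction, and over all genes above 0 in any library that share was 10.3%. Over all 9 members, groups did not overlap for 5 in CBR against DMSO (26.9% of the 26034 genes above 0), for 4 in CBR+SAM against CBR (24.1%) and for 0 in CBR+SAM against DMSO (23.0%). In CBR against DMSO the cleavage members Gldc, Amt and Gcsh were all lower without overlap. The intervals of Gldc (-0.77 to 0.34) and Gcsh (-0.61 to 0.29) included 0. Amt rested on about 8 and 9 reads in CBR and 11 and 10 in DMSO. A joint change of these 3 genes was not tested. The 3 synthesis members differed among themselves, with Psat1 higher and Phgdh and Psph overlapping. The deposited values of the glycine cleavage members summed to 6.11 and 5.39 in DMSO, 5.03 and 4.52 in CBR, and 5.09 and 6.65 in CBR+SAM.

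Of 5 partners of the glycine cleavage system 3 were tested, and these 3 were far more abundant than Gldc, Amt and Gcsh. Among them 0 passed the adjusted threshold in any of the 3 comparisons with limma, and 0 had an unadjusted p under 0.05. Dld, the dihydrolipoamide dehydrogenase that also serves the 2-oxoacid dehydrogenases, read 75.3 and 114 in DMSO, 69.5 and 91.5 in CBR, and 80.3 and 79.9 in CBR+SAM. Within a library it exceeded Gldc 25.7 to 50.3 times. Lipt1, a lipoyltransferase, ran from 107 to 149 and Nfu1, an iron-sulfur carrier used in lipoate synthesis, from 138 to 168. Lipt2, which acts early in lipoate attachment, ran from 0.264 to 1.30 and was not tested. Lias, the remaining partner, ran from 0.147 to 0.958 and was not tested either. Lipt2 and Lias thus lay below Gldc and Gcsh in every library.

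The list of other enzymes of serine and glycine metabolism and of linked steps held 22 genes, of which 8 were tested. Of these, 0 passed the adjusted threshold in any of the 3 comparisons with limma (0 with an unadjusted p under 0.05). Cth, which makes cysteine from cystathionine, ran from 155 to 229 and Sptlc2, a subunit of serine palmitoyltransferase, from 151 to 251. Alas1, which joins glycine and succinyl-CoA in heme synthesis, ran from 18.7 to 33.6 and Sptlc1 from 21.7 to 25.1. Sdsl, Agxt and Sardh were at 0 in all 6 libraries.

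Of the 3 tRNA synthetases for serine and glycine 2 were tested and 0 passed the adjusted threshold. Sars read 45.5 and 43.0 in DMSO, 54.3 and 50.8 in CBR, and 47.2 and 28.8 in CBR+SAM, and Gars ran from 19.0 to 24.1. Sars2, the mitochondrial seryl enzyme, ran from 0.0459 to 0.667 and was not tested. Of 17 carriers 5 were tested and 0 passed the adjusted threshold. Slc6a9, the glycine transporter GLYT1, read 17.5 and 14.7 in DMSO, 15.4 and 14.0 in CBR, and 19.4 and 14.2 in CBR+SAM. Serinc1 ran from 35.3 to 61.7, Slc25a38, the mitochondrial glycine carrier, from 11.3 to 12.7, and Slc38a1 from 6.30 to 10.2. The tRNA synthetases and the carriers had 0 members with an unadjusted p under 0.05 in the 3 comparisons.

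**Figure D4:**
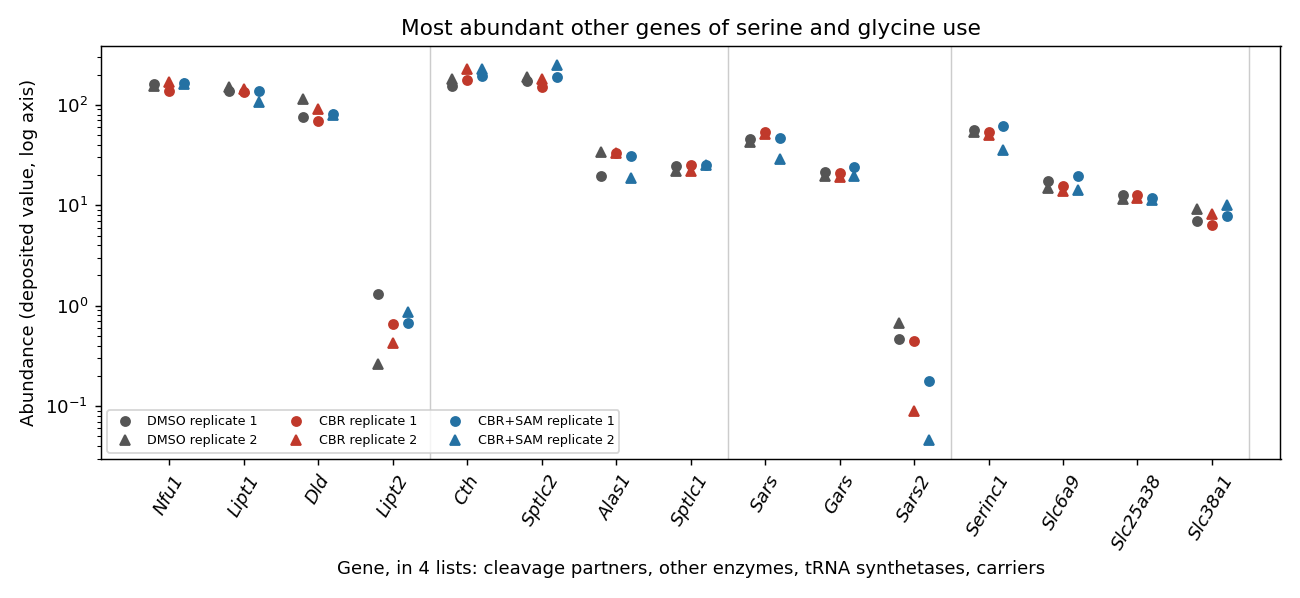
Abundance in each library of the 4 most abundant genes (3 for the tRNA synthetases) of the lists of cleavage partners, other enzymes, tRNA synthetases and carriers, on a log axis. The cleavage partners Nfu1, Lipt1 and Dld lie at 69.5 or above, and Lipt2 and Sars2 are the only genes shown with values below 1.

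Of 8 known regulators of these genes 5 were tested, and 0 passed the adjusted threshold in any of the 3 comparisons with limma. At an unadjusted p under 0.05 there was 1 in each comparison with DMSO, beside 2.12% and 2.14% of all genes, and 0 in CBR+SAM against CBR. That gene, named after its values were seen, was Ehmt2, a histone H3 lysine methyltransferase. It read 1.70 and 1.43 in DMSO, 4.05 and 3.62 in CBR, and 3.16 and 2.95 in CBR+SAM. Its change against DMSO was 0.91 in CBR (0.46 to 1.37) and 0.66 in CBR+SAM (0.20 to 1.12), both with a limma adjusted p of 1.00. Atf4, which drives the serine genes under amino acid stress, read 26.4 and 36.2 in DMSO, 25.5 and 30.1 in CBR, and 25.02 and 33.2 in CBR+SAM. It was higher in replicate 2 in each group, with a replicate change of 0.36 (0.06 to 0.65, limma adjusted p = 0.423). Nrf1 ran from 31.1 to 45.8, Nfe2l2 from 7.07 to 8.79 and Tfap2c from 4.45 to 7.90. In the test of replicate numbers, where Shmt1 passed, 0 genes of these 5 lists did.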

How the data were processed

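RNA was measured in 6 libraries of 3 groups, with cDNA made by a SMART-Seq v4 kit for low input and libraries by Nextera XT, per the labels' protocols. The deposited table holds 1 signal value per gene and library, an abundance per transcript length. Per the submitters' processing notes, the tools were fastp, kallisto and DESeq2 and the build mm10, without versions or roles. The columns differ in their sums, unlike TPM, so a further scaling not given in the sources used here was applied. Read counts were not used here. For 2165 genes with 1 transcript, 82.5% to 85.3% of low values lay within 0.1 of a whole read, a band that covers 20.0% of the range. The value of 1 read was chosen in each library to make this share highest, so the share is no independent check. The read numbers printed are approximate. They place the whole value of a gene on its longest protein-coding transcript, and another choice of transcript would give other numbers. Phgdh has 4 annotated transcripts, Psat1 7 and Shmt1 11.

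Ensembl identifiers were matched to GENCODE M21 symbols for 35820 of 36065 genes. Values were taken as log2(value + 1), and genes with at least 1 in at least 2 libraries were kept. For the conditions, 1 fit of all 3 groups was made in R 4.3.3 (limma 3.58.1, trend on, 3 residual degrees of freedom). Replicate numbers were compared in a separate limma fit with group and replicate number, which left 2 residual degrees of freedom. Both fits used Benjamini-Hochberg adjustment over 12249 genes at 0.05. On the log2(value + 1) scale changes of low genes are understated. For CBR against DMSO, data were simulated with 200 changed genes of 12249. They gave calls for 24.9% of 2-fold and 71.0% of 4-fold changes of (value + 1), and 3.70 false calls per draw. For low genes, such as the members, these stand for larger folds of the value itself. The simulated libraries were drawn independently, without an effect shared by replicate number. Copies were searched with blastn 2.17.0.

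All 9 members are named with every library. Of other lists up to 4 genes of highest mean are named, with any that passed. The members, lists and tests were chosen with earlier results of these data known. Alternatives were another pseudocount, other filters and scalings, no trend, array weights, a replicate block, the compared libraries alone and leaving out each library.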

Additional observations from a re-analysis of the deposited data

How the results depend on the processing

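In the 3 comparisons of conditions, no tested member passed the threshold under any alternative run. The number of genes called was 0 for CBR against DMSO, 1 with only the 4 libraries compared and 0 to 2 when each library was left out. For CBR+SAM against CBR it was 1, 0 with a pseudocount of 0.1, 0 with no filter, 0 with a filter of at least 5, and 0 to 9 with a library left out. For CBR+SAM against DMSO it was 1, 0 under the same 3 settings and with only the 4 libraries compared, and 0 to 3 with a library left out. For replicate 2 against replicate 1 it was 46, 1 with no filter, 281 with array weights and 45 to 172 with a library left out. The cause was not tested.

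Of the member changes, those with a turned sign were small or wide. With each library rescaled to the same sum, Phgdh gave -0.069 and Srr -0.045 for CBR+SAM against DMSO. With array weights, Psph gave 0.11 and Gldc -0.11 between replicate numbers. With a library left out, Phgdh ran from -0.33 to 0.052 and Shmt1 from -0.30 to 0.97 for CBR against DMSO. For CBR+SAM against CBR the ranges were -0.067 to 0.35 for Phgdh, -0.95 to 0.61 for Shmt1, -0.26 to 0.0092 for Srr and -0.040 to 0.44 for Gldc. For CBR+SAM against DMSO they were -0.21 to 0.21 for Phgdh, -0.020 to 0.30 for Psph, -0.61 to 0.94 for Shmt1, -0.14 to 0.078 for Shmt2, -0.030 to 0.049 for Srr and -0.26 to 0.22 for Gldc. Between replicate numbers they were -0.22 to 0.079 for Psph, -0.15 to 0.20 for Gldc and -0.11 to 0.0092 for Gcsh. Where a group was left with 1 library, that library was assumed to vary like the others.

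With the replicate block the counts of called genes were 0, 1 and 1, as without it, and Shmt1 gave 0.34 for CBR against DMSO with an SE of 0.18 in place of 0.64 (limma adjusted p = 1.00). The replicate differences of the groups correlated at 0.39, 0.22 and 0.09 across genes, all above 0. Replicate number was left out of the main fit by group because the sources used here state no pairing. A difference shared by replicate number can therefore widen the intervals of that fit, as it did for Shmt1. Psat1 and Amt are limited by depth, at about 3 to 15 reads.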
